A study of Mus musculus with 13 samples.

Results

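The respiratory chain is described here through the 97 protein-coding genes whose symbols name a subunit of its 5 complexes, out of 46679 gene IDs and 21581 protein-coding gene IDs in the tables. They were chosen by name alone: symbols that start with mt-Nd, mt-Co, mt-Atp or mt-Cytb, Nduf followed by a, b, c, s or v and a number, Sdha to Sdhd, Uqcr, Cox4 to Cox8, or Atp5. Of these, 13 are encoded by mitochondrial DNA and 84 by nuclear DNA. Complex I has 44 members, complex II 4, complex III 9, complex IV 21 and complex V 19. The name rule also takes in Atp5s, a factor coupled to the ATP synthase, and the isoform Ndufa4l2.

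The study asked what a mammary tumor at a distant site does to gene expression in the mouse lung. All mice were female FVB mice aged 10 weeks. Tumors (3 libraries, from mice 6877, 6880 and 6881) had grown for 2 weeks from 250000 cells of Met1, a mouse breast cancer line, placed in the inguinal mammary fat pad when the mice were 8 weeks old. Tumor-bearing lungs (4 libraries) were the lungs of mice 6877, 6879, 6880 and 6881 with such a tumor. Normal lungs (6 libraries from 4 mice) came from mice with no tumor, with mice 6886 and 6888 prepared in both batches. Preparation batch 1 held 3 tumor-bearing and 2 normal lungs, and batch 2 held the 3 tumors, 1 tumor-bearing lung (mouse 6877) and 4 normal lungs. One cell line gave all tumors, and each tumor library was bulk tissue that also held host cells.

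The chain passes electrons from NADH (complex I) and succinate (complex II) through complex III to oxygen at complex IV, and complex V, the ATP synthase, uses the proton gradient that results to make ATP. Complexes I, III, IV and V are built from subunits of both genomes, while complex II is wholly nuclear. Mitochondrial DNA is transcribed as long precursors that are cut into single messages, and the nuclear subunits are made in the cytosol and imported. In the lung several nuclear subunits have tissue-restricted isoforms, among them Cox4i2, the lung and low-oxygen form of a complex IV subunit.

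Libraries held 8321037 to 13982903 estimated counts, of which protein-coding genes took 45.6 to 69.6%. Levels are given as protein-coding TPM, which is the deposited TPM rescaled to the summed TPM of the library's protein-coding genes, and which is per unit of length. Fold changes come from counts scaled over all genes tested, so they can differ from ratios of these levels. The labelled tissues were checked against marker genes. Summed levels of 8 alveolar type 2 cell genes were 35.2 to 69.1 in tumors, against 17070 to 36620 in the lung libraries. Summed levels of 6 red blood cell genes were 867 to 4122 in tumors, against 32600 to 156800 in lungs. The sum over 12 neutrophil genes was 1870 to 2547 in tumors. Batch 2 lungs had sums of 150.8 to 402.9 in normal mice and 865.6 in mouse 6877, which bore a tumor. Batch 1 lungs had 86.35 to 96.55 in normal mice and 258.5 to 844.7 in mice with tumors. Taken singly, the neutrophil genes S100a9 and Csf3r were at 6.04 to 33.3 and 2.42 to 5.68 in tumors. Lcn2, which carcinoma cells also express, was at 1821 to 2422 there. In tumor-bearing lungs of batch 1 they stood at 112 to 330 (S100a9), 37.3 to 78.2 (Csf3r) and 19.1 to 30.3 (Lcn2), against 17.6 to 18.8, 6.22 to 6.93 and 33.4 to 41.5 in normal lungs of that batch. Summed levels of 8 fat cell genes were 177 to 586 in tumors, against 15.0 to 47.6 in lungs. In bulk tissue, fewer cells of a type and less RNA per cell cannot be told apart.

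Both genomes took a larger share of the protein-coding signal in tumors than in any lung of the same batch. The 13 mitochondrial genes summed to 3.65%, 5.77% and 3.98% of protein-coding TPM in tumors, against 3.23%, 3.19%, 3.27% and 3.30% in the 4 normal lungs of batch 2. The 84 nuclear genes summed to 4.04%, 3.26% and 3.83% in tumors, against 2.04%, 2.15%, 1.98% and 2.03% in those normal lungs. The groups did not overlap for either genome, and the step was larger for the nuclear genes. Short genes weigh more in these sums than in counts, among them mt-Atp8 and mt-Nd4l (0.006 and 0.031 of the median effective length). As shares of protein-coding counts, the mitochondrial genes took 2.55 to 3.74% in tumors, against 1.65 to 1.79% in normal lungs of batch 2. The nuclear genes took 1.21 to 1.62% of counts in tumors, against 0.6265 to 0.6916% in those normal lungs. The protein-coding total includes the 6 red blood cell genes, which summed to 81700 to 156800 in normal lungs of batch 2 and 867 to 4122 in tumors. Shares of a total without them were not computed, so their part in the gap between the groups was not tested. The mitochondrial to nuclear ratio was 0.903, 1.77 and 1.04 in tumors, against 1.48 to 1.66 in normal lungs of batch 2, so the tumor of mouse 6880 lay above the normal lungs and the other tumors below them.

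Most tumor-bearing lungs had lower shares than the normal lungs of their batch. In batch 1 the mitochondrial genes took 0.825%, 1.72% and 1.43% in tumor-bearing lungs of mice 6879, 6880 and 6881, against 1.62% and 2.01% in normal lungs, and these groups overlapped. The nuclear genes took 1.43%, 1.34% and 1.35% in the same tumor-bearing lungs, against 1.55% and 1.49% in normal lungs, which did not overlap. On shares of protein-coding counts the overlaps were the other way round. The mitochondrial genes then took 0.3392%, 0.6149% and 0.515%, against 0.6312% and 0.8155%, which did not overlap. The nuclear genes took 0.4425%, 0.3856% and 0.4118% of counts, against 0.4497% and 0.4184%, which overlapped. In batch 2 the tumor-bearing lung of mouse 6877 stood at 2.61% for the mitochondrial and 1.93% for the nuclear genes, below each of the 4 normal lungs of that batch. These sums are descriptions and carry no test.

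**Figure D1:**
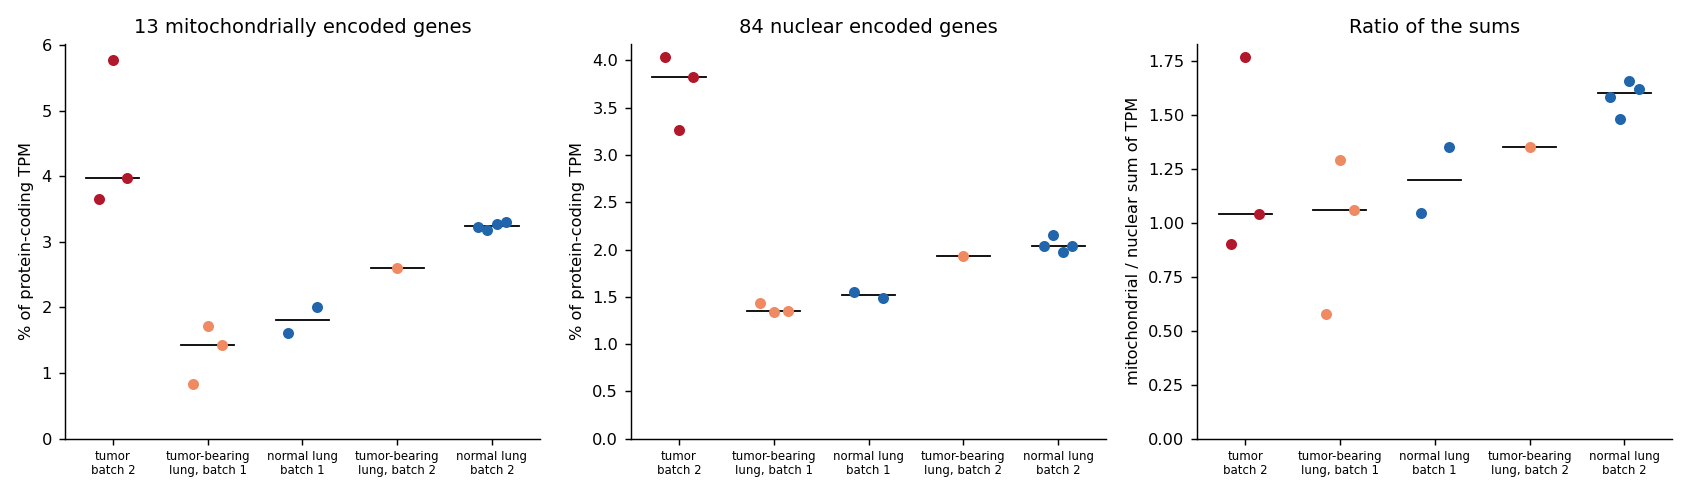
Share of protein-coding TPM (%) taken by the 13 mitochondrial genes (left) and the 84 nuclear genes (middle), and the ratio of the sums (right), by group and preparation batch; each point is a library and each line the group median. Tumors lie highest in the left and middle panels, at 3.65 to 5.77% and 3.26 to 4.04%, and lungs of batch 1 lie below lungs of batch 2 in both.

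The same genes differed between libraries of the same mouse made in different preparation batches. Normal mice 6886 and 6888 each had a library in both batches, and the level of all 13 mitochondrial genes was higher in the batch 2 library of each mouse, with a median log2 difference of 0.98 in mouse 6886 and 0.77 in mouse 6888. Over 83 nuclear members with a mean level of at least 1 the medians were 0.33 and 0.41, and over 14110 protein-coding genes they were −0.24 and −0.28. The libraries of mouse 6886 also differed in heart muscle genes, as described below with the heart isoforms. Comparisons were made within batch 2 or with batch as a term. Per the labels, the length of fragmentation was set by each sample's RNA quality, for which no values are used here.

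Of the 97 members, 95 passed the filter on low counts in each comparison, all 13 mitochondrial genes and 82 of 84 nuclear genes. Those that did not pass were Cox8c, with 0 counts in every library, and Cox7b2, a form known from testis. Cox7b2 had 71.3 counts in the tumor-bearing lung of mouse 6881 and at most 1.6 counts in each other library.

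Mitochondrially encoded genes were higher in tumors than in normal lung. In the comparison within batch 2 (3 tumors, 4 normal lungs; edgeR's quasi-likelihood test with Benjamini-Hochberg adjustment over 18038 genes at a threshold of 0.05), 10 of the 13 rose and 0 fell, where 29.4% of all genes tested rose and 27.4% fell. Their median log2 fold change was 0.70, against −0.02 over all genes tested. The 3 that did not pass were mt-Co2 (log2 fold change 0.24), mt-Nd3 (0.52) and mt-Atp6 (0.45). Leaving out single libraries moved these from −0.59 (without the tumor of mouse 6880) to 0.70 (without the normal lung of mouse 6886) for mt-Co2, from 0.10 (without tumor 6880) to 0.84 (without tumor 6881) for mt-Nd3, and from 0.22 (without tumor 6877) to 0.74 (without tumor 6881) for mt-Atp6. The number that rose was 4 in a fit of 11 libraries with a batch term. That fit held the 3 tumors, 4 tumor-bearing lungs and 4 normal lungs. Mice 6886 and 6888 entered it with their batch 1 library, not that of batch 2. Within batch 2 the number was 3 without these mice. It was 3 with limma on log2(TPM + 1) and 4 on log2(TPM + 0.1), and all 13 estimates were above 0 in each fit.

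Among the 7 mitochondrial subunits of complex I, which sit in its membrane arm, the change was largest for mt-Nd1. Its level was 3005, 6173 and 3378 in tumors, against 2167, 2251, 2185 and 2225 in normal lungs of batch 2. Every tumor lay above every normal lung, and the log2 fold change was 1.22 (SE 0.20, edgeR adjusted p = 0.000792). mt-Nd5 stood at 908, 2086 and 1606 in tumors, against 915, 932, 922 and 954 in normal lungs. The tumor of mouse 6877 was no higher in this level than normal lung, although on the scale of the test the log2 fold change was 1.01 (SE 0.20, edgeR adjusted p = 0.00216). The test scales libraries in another way, and the log2 difference in mean level was lower, at 0.64. The same held for mt-Nd1, at 0.85 in level, and for Atp5h, at 2.40 in level against 2.77 in the test. mt-Nd4 had 1699, 2372 and 2208 in tumors, against 1811, 1912, 1905 and 1900 in normal lungs, with a log2 fold change of 0.48 (SE 0.155, edgeR adjusted p = 0.0260). That call was lost in the fit of 11 libraries with a batch term described above (log2 fold change 0.21, edgeR adjusted p = 0.575). mt-Nd6, the one member transcribed from the light strand, had 411, 1621 and 881 in tumors, against 635, 593, 604 and 621 in normal lungs. Here the tumors lay on both sides of the normal lungs, and the log2 fold change of 0.91 (SE 0.29, edgeR adjusted p = 0.0233) became 0.48 without the tumor of mouse 6880.

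In complexes III, IV and V the mitochondrial genes mt-Cytb, mt-Co1, mt-Co3 and mt-Atp8 rose, and mt-Co2 and mt-Atp6 did not pass. mt-Cytb, the cytochrome b of complex III, had 2833, 4280 and 3846 in tumors, against 2395, 2346, 2571 and 2479 in normal lungs of batch 2. The groups did not overlap (log2 fold change 0.89, SE 0.16, edgeR adjusted p = 0.00132). mt-Co1, the catalytic subunit of complex IV, had 6444, 11870 and 8386 in tumors, against 5169, 5625, 5286 and 5439 in normal lungs. Its log2 fold change was 1.03 (SE 0.20, edgeR adjusted p = 0.00190). mt-Atp8, a subunit of the ATP synthase, had 9062, 9893 and 5960 in tumors, against 6892, 5904, 7058 and 7431 in normal lungs, which overlap. The level of mt-Atp8 rests on 510 to 765 counts per tumor and an effective length 0.006 of that of the median protein-coding gene, so its rank among the highest levels per length has little meaning.

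For 7 of the 13 genes a stretch of chromosome 1 carries a near-identical copy that the tables list as a separate gene, and reads were divided between gene and copy. The copies lie within chr1:24611535-24616197 on the reverse strand (GRCm38). Over their aligned lengths mt-Co2 and Gm28661 (681 bases), mt-Co3 and Gm28437 (783), mt-Atp6 and Gm10925 (678), mt-Nd4l and Gm10222 (294) and mt-Nd4 and Gm28439 (876) had 0 differences. mt-Nd3 and Gm28438 differ at a single base over 345, T3C (gene base first, positions counted from 1 at the gene's first base). mt-Co1 and Gm29216 were 98.8% identical over 492 bases. The stretches of 90 bases below show why a read of 75 bases cannot be placed where gene and copy do not differ. The gene mt-Co2 (positions 296 to 385) and its copy are the same letter for letter. mt-Nd3 and its copy (positions 1 to 90) differ in the letter set in capitals, and only a read over that letter can tell them apart.
mt-Co2: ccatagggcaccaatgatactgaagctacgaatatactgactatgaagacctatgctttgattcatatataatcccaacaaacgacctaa
Gm28661: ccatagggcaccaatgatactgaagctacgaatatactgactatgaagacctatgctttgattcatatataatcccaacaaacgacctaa
mt-Nd3: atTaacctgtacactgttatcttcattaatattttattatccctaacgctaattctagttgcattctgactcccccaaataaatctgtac
Gm28438: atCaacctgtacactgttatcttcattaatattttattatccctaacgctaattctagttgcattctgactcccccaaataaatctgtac

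The division differed by gene and by library. Of the summed TPM of mt-Co2 and its copy, the copy was given 94.2 to 99.99%, which left mt-Co2 with 0.2 to 335 protein-coding TPM beside 1322 to 11870 for mt-Co1. The share given to the copy was 72.1 to 91.1% for mt-Co3, 34.8 to 51.7% for mt-Co1, 13.5 to 63.7% for mt-Atp6 and 10.1 to 74.4% for mt-Nd3. For mt-Nd4 it was 0 to 52.8%, and 8 of 13 libraries gave the copy under 2%. No library gave any count to the copy of mt-Nd4l. In mt-Nd1, 0% of the 31-base words are shared with any other annotated gene, and the shares for mt-Cytb (6.55%), mt-Nd6 (7.36%), mt-Nd2 (13.5%) and mt-Nd5 (16.8%) were low.

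**Figure D2:**
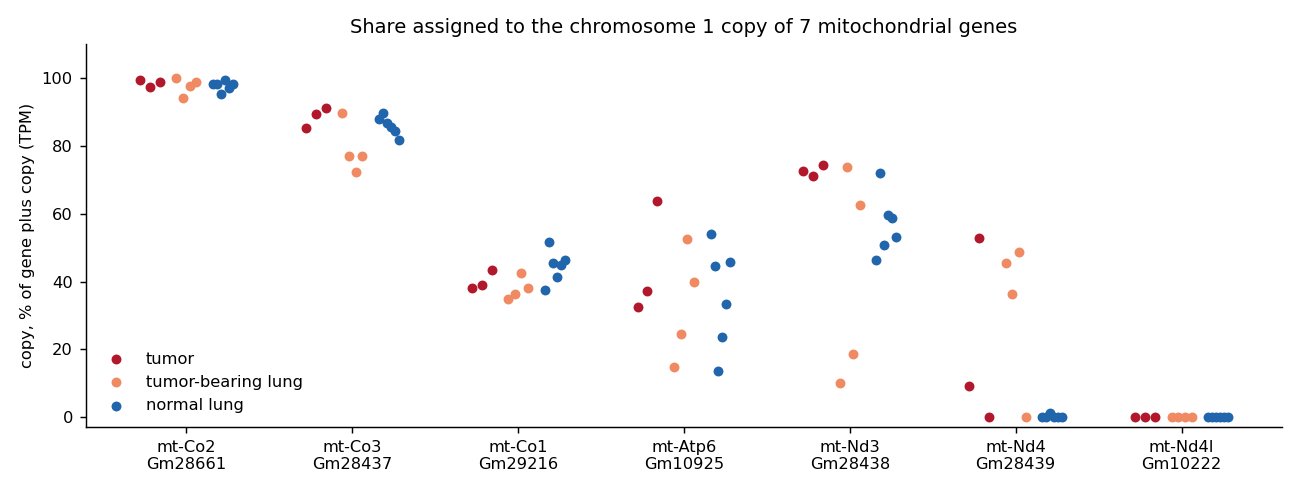
Share (%) of the summed TPM of gene and chromosome 1 copy that was given to the copy, for 7 mitochondrial genes; each point is a library, coloured by group. mt-Co2 lies at 94.2 to 99.99% in every library, while mt-Nd3 and mt-Nd4 differ between libraries of a group.

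When the counts of the copies were added to their genes, an alternative chosen after the data were seen, all 13 mitochondrial genes rose in tumors against normal lung and 0 fell. The median log2 fold change became 0.91. mt-Co2 then had a log2 fold change of 0.92 (edgeR adjusted p = 0.00149), mt-Nd3 1.19 (0.00473) and mt-Atp6 0.77 (0.0036). The mitochondrial genes and copies together took 6.02%, 9.77% and 6.81% of protein-coding TPM in tumors, against 4.84 to 5.14% in normal lungs of batch 2. The 6 genes with no copy among these 7 (mt-Nd1, mt-Nd2, mt-Nd5, mt-Nd6, mt-Cytb and mt-Atp8) all rose with no such addition, by log2 fold changes of 0.54 to 1.22.

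Nuclear subunits rose in tumors across all 5 complexes. Of 82 tested, 65 rose and 3 fell, with a median log2 fold change of 1.06. Genes that rose and fell made up 29.4% and 27.4% of all genes tested. By complex, 29 of 37 rose in complex I (median 1.05), 3 of 4 in complex II (0.94), 8 of 8 in complex III (1.10), 9 of 16 in complex IV (0.99) and 16 of 17 in complex V (1.26). Tumors and normal lungs of batch 2 did not overlap, with tumors higher, for 59 of the 82 on the CPM scale, where 28.4% of the 18796 genes compared were of that kind. With tumors lower it was 3 of the 82, against 30.5% of those genes. On protein-coding TPM, a count added after the data were seen, it was 58 higher and 4 lower. The shares of 14110 protein-coding genes were 23.7% and 37.0%. Of the 13 mitochondrial genes, tumors lay above all these normal lungs for 7 on the CPM scale and 3 on protein-coding TPM. They lay below them for 0 on either scale. On protein-coding TPM, 3 of 13 is close to the 23.7% of all protein-coding genes, so on that scale the mitochondrial genes did not stand out.

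In complex I the largest rises were in accessory subunits. Ndufb8, of the membrane arm, had 1476, 1639 and 1162 in tumors, against 514, 551, 502 and 478 in normal lungs of batch 2. All tumors were above all normal lungs (log2 fold change 1.82, SE 0.17, edgeR adjusted p = 2.52e-05). Ndufa4, first found with complex I and now placed with complex IV, had 1203, 1100 and 1362 in tumors, against 482, 450, 449 and 501 in normal lungs; the log2 fold change was 1.73 (SE 0.17, edgeR adjusted p = 2.66e-05). Of the 37 nuclear members counted here with complex I, 36 had estimates above 0. The exception was Ndufa4l2, a paralog of Ndufa4, with a log2 fold change of −3.17, described below. Core subunits differed from one another. Ndufv2, an iron-sulfur subunit of the NADH-binding arm, rose by a log2 of 1.58, whereas Ndufs1 (0.39, adjusted p = 0.0709) and Ndufs7 (0.14, adjusted p = 0.446) did not pass the test in edgeR.

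In complex II, Sdhd, a membrane anchor, had 133, 126 and 94.1 in tumors, against 52.0, 64.6, 56.8 and 52.1 in normal lungs of batch 2 (log2 fold change 1.41, SE 0.20, edgeR adjusted p = 0.000275). Sdhb, the iron-sulfur subunit, rose by a log2 of 1.03 and Sdhc, the other anchor, by 0.85. Sdha, the flavoprotein that oxidises succinate, was at 260, 369 and 347 in tumors, against 459, 315, 398 and 354 in normal lungs, and its log2 fold change of 0.09 (SE 0.16) did not pass.

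All 8 nuclear subunits of complex III rose. Uqcrfs1, the Rieske iron-sulfur protein, had 94.8, 142 and 85.8 in tumors, against 38.4, 36.5, 34.7 and 40.0 in normal lungs of batch 2. The tumors lay well clear of the normal lungs (log2 fold change 1.84, SE 0.16, edgeR adjusted p = 1.34e-05). Uqcrh, the hinge protein beside cytochrome c1, had 1522, 1346 and 1383 in tumors, against 433, 576, 454 and 446 in normal lungs; the log2 fold change was 1.93 (SE 0.19, edgeR adjusted p = 3.45e-05). The smallest rise was in Uqcr11 at 0.57 (SE 0.22, edgeR adjusted p = 0.0475).

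The ATP synthase held the largest rise of all members in this comparison. Atp5h, subunit d of the peripheral stalk, had 3273, 3093 and 2780 in tumors, against 551, 571, 579 and 595 in normal lungs of batch 2. The lowest tumor was far above the highest normal lung (log2 fold change 2.77, SE 0.18, edgeR adjusted p = 2.52e-06). A processed pseudogene, Gm10250, shares 24.3% of the 31-base words of Atp5h but had at most 32.8 counts in a library, against 541 to 6206 for Atp5h. Atp5c1, the rotating gamma subunit, had 266, 297 and 251 in tumors, against 115, 127, 115 and 123 in normal lungs; the log2 fold change was 1.52 (SE 0.14, edgeR adjusted p = 2.10e-05). The catalytic beta subunit Atp5b rose less, by 0.91 (SE 0.15, edgeR adjusted p = 0.000661). Atp5s was at 1.2, 3.0 and 1.8 in tumors, against 3.6, 2.8, 2.9 and 2.6 in normal lungs, and did not pass.

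Subunit c, the ring protein of the synthase, is made from 3 nuclear genes that encode the same mature protein. Atp5g1 had 409, 469 and 324 in tumors, against 184, 101, 102 and 114 in normal lungs of batch 2 (log2 fold change 2.01, SE 0.26, edgeR adjusted p = 0.000146). Atp5g3 had 420, 379 and 384 in tumors, against 172, 149, 152 and 175 in normal lungs (log2 fold change 1.64, SE 0.17, edgeR adjusted p = 4.20e-05). Atp5g2 had 159, 128 and 139 in tumors, against 101, 45.7, 64.0 and 46.8 in normal lungs (log2 fold change 1.49, SE 0.32, edgeR adjusted p = 0.00324). Of their sum Atp5g1 took 38.3 to 48.0% in tumors, against 32.1 to 40.2% in normal lungs, ranges that overlap. A transcribed pseudogene, Gm10175, shares 37.5% of the 31-base words of Atp5g2 and had 128 to 1045 counts in the libraries, against 83.2 to 362 for Atp5g2, so the level of Atp5g2 is uncertain.

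**Figure D3:**
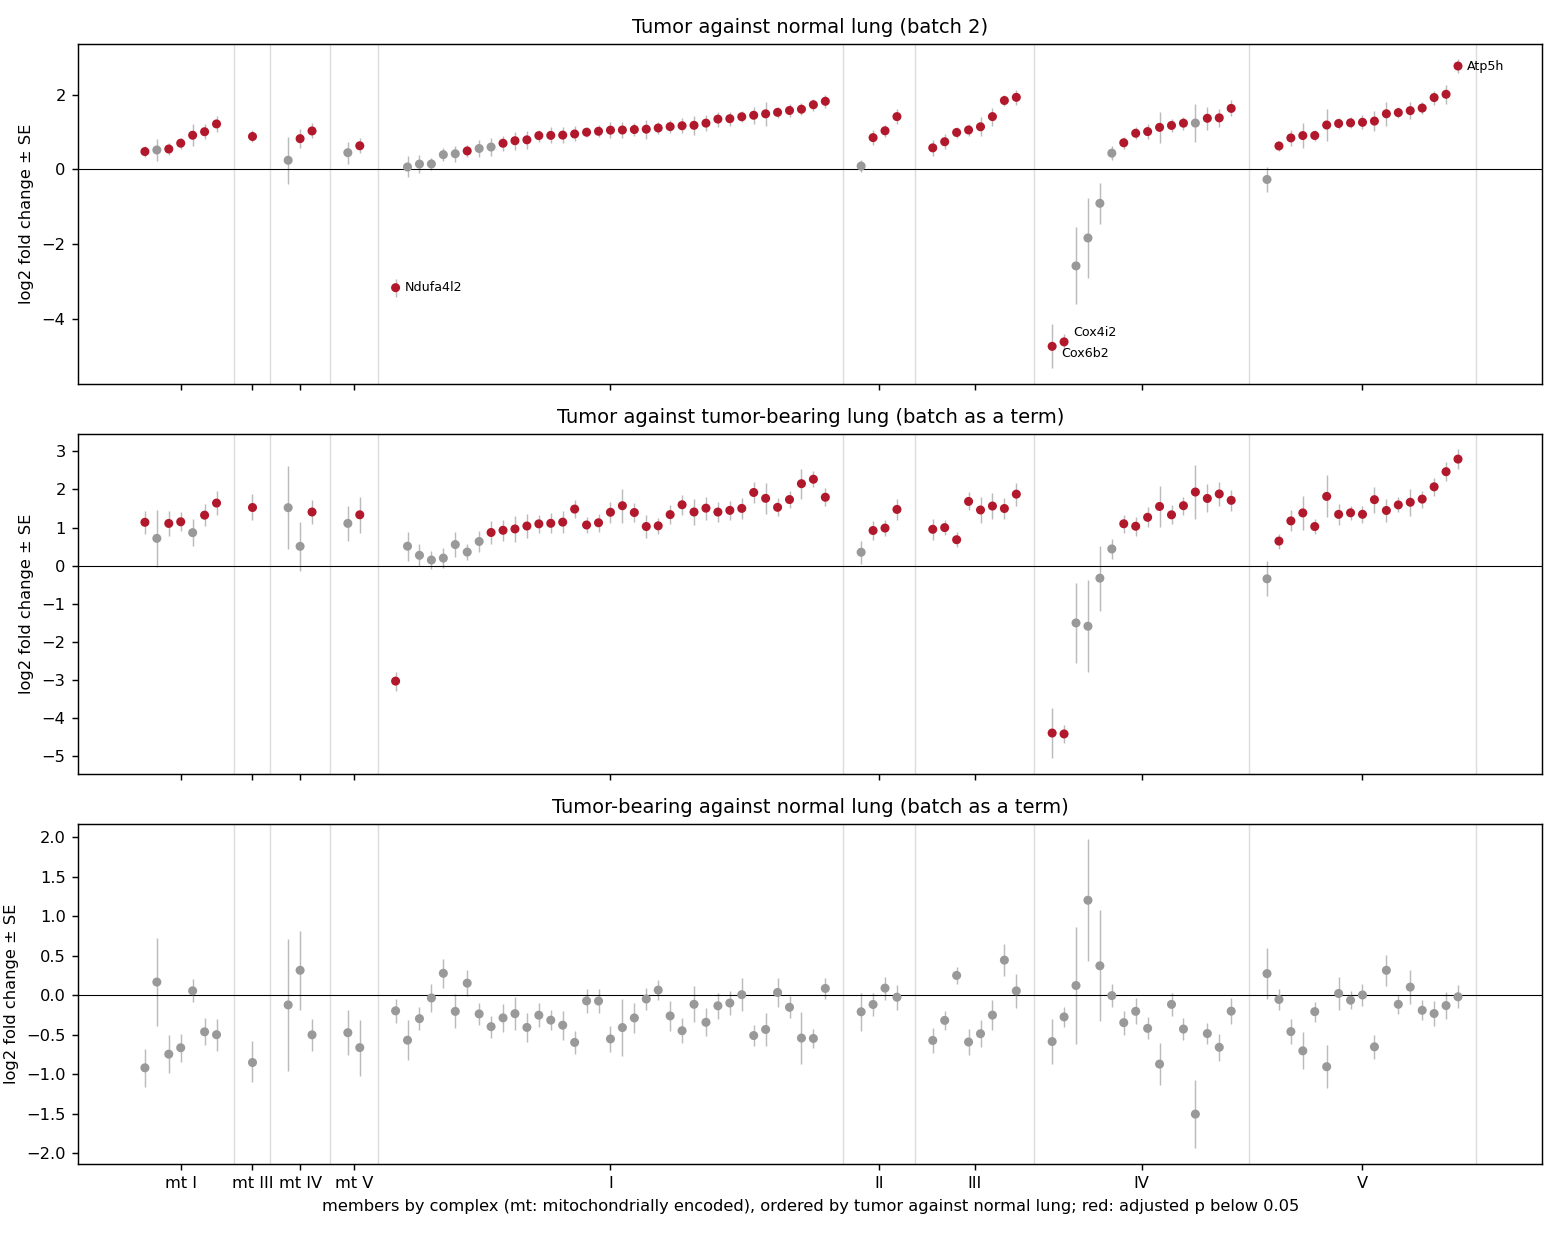
Log2 fold change ± SE of the 95 members tested in the 3 comparisons, in columns by genome and complex and in the same order in each panel; red points have an adjusted p below 0.05. Most members lie above 0 in the panels of tumors and below 0 in the panel of lungs, where no point is red.

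The 3 nuclear members that fell in tumors were all isoforms of a widely expressed partner. Cox4i2, the isoform of complex IV subunit 4 found in lung and induced by low oxygen, had 2.1, 2.3 and 2.6 in tumors, against 69.6, 73.7, 78.0 and 76.8 in normal lungs of batch 2. The tumors held 7.6 to 11.3 counts of Cox4i2 each, and the log2 fold change was −4.62 (SE 0.21, edgeR adjusted p = 5.16e-07). Its partner Cox4i1 had 1589, 1376 and 1354 in tumors, against 772, 863, 797 and 847 in normal lungs, and rose by a log2 of 1.17 (SE 0.18, edgeR adjusted p = 0.000481). Of the pair's sum, Cox4i2 made up 0.133 to 0.194% in tumors, against 7.86 to 8.92% in normal lungs of batch 2.

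Ndufa4l2, a paralog of Ndufa4 known as a target of the hypoxia-inducible factor, had 1.5, 2.6 and 1.8 in tumors, against 20.9, 22.4, 22.3 and 24.5 in normal lungs of batch 2 (log2 fold change −3.17, SE 0.24, edgeR adjusted p = 5.87e-06). Its share of the pair with Ndufa4 was 0.124 to 0.233% in tumors, against 4.15 to 4.74% in normal lungs. Cox6b2, known mainly as the testis form of a complex IV subunit, had 0, 0.9 and 2.7 in tumors, from 0, 1.2 and 4.1 counts, against 34.0, 48.8, 44.0 and 42.7 in normal lungs. Its fitted log2 fold change was −4.74 (SE 0.59, edgeR adjusted p = 0.000126), which ranged from −6.18 to −4.36 as single libraries were left out. The partner Cox6b1 rose by 1.24 (SE 0.18, edgeR adjusted p = 0.000308).

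Vascular genes were also low in the tumors. The summed level of 8 endothelial genes, a list added after values were seen, was 71.4 to 115 in tumors, against 2377 to 2616 in normal lungs of batch 2. That of 8 pericyte and vascular muscle genes was 25.4 to 37.8 in tumors, against 137 to 166 in normal lungs. None of these genes was at 0 in every tumor, and 1 of them, Rgs5, was higher in tumors (11.9 to 18.9, against 3.7 to 4.2). Epas1, which encodes hypoxia-inducible factor 2 alpha and is abundant in lung endothelium, fell with them (log2 fold change −5.83, SE 0.25, edgeR adjusted p = 4.03e-07). Their part in the fall of the isoforms was not tested.

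**Figure D4:**
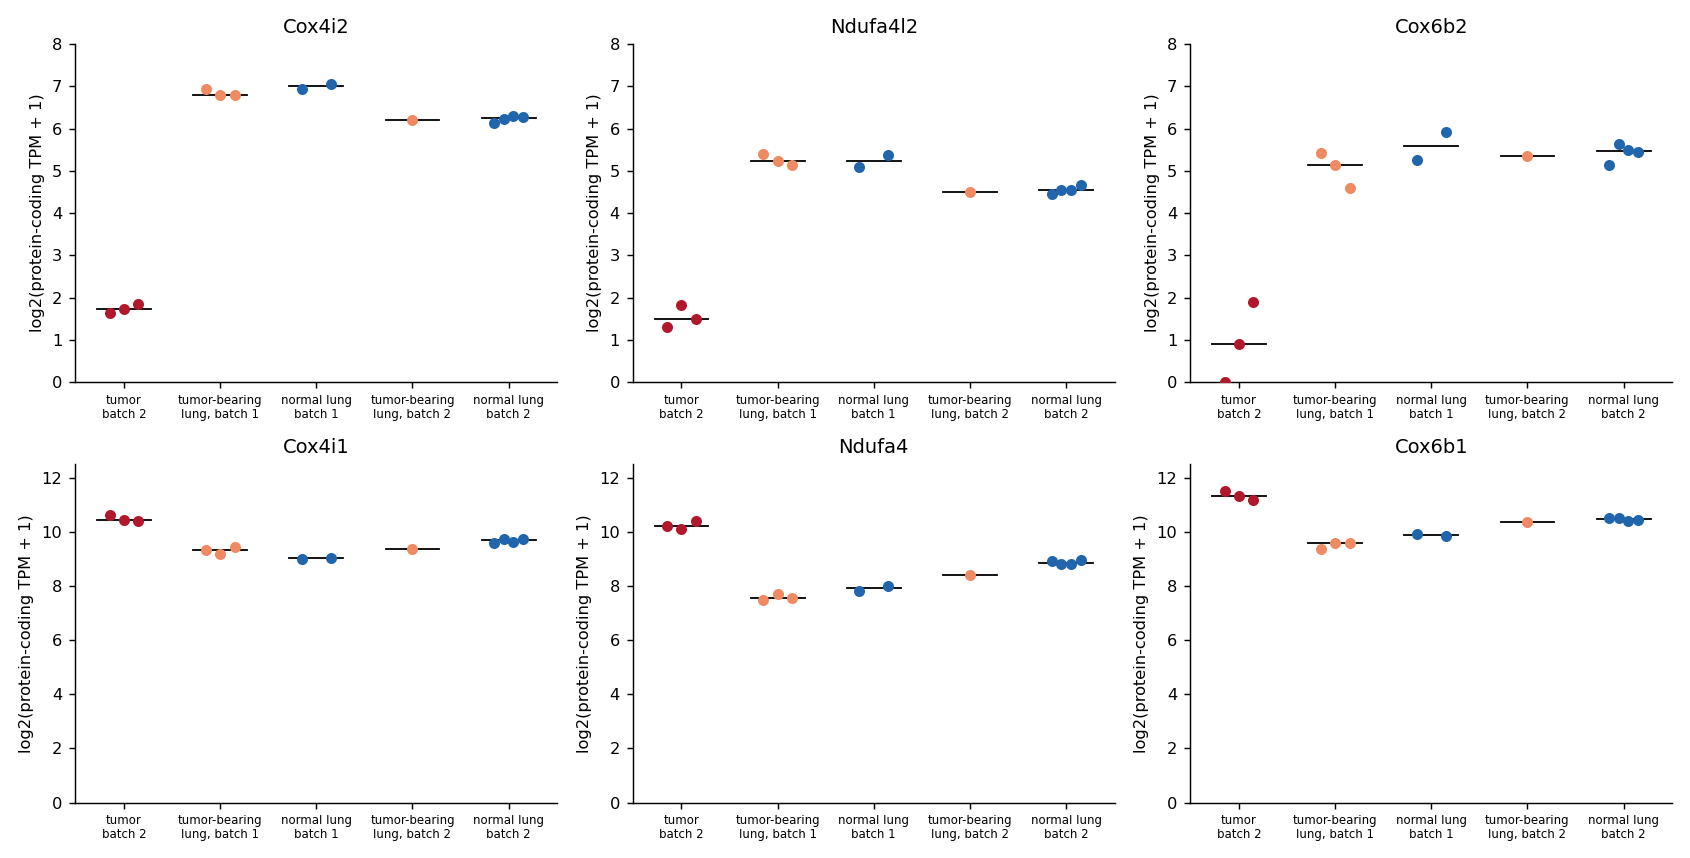
Levels of Cox4i2, Ndufa4l2 and Cox6b2 (top) and of their partners Cox4i1, Ndufa4 and Cox6b1 (bottom) as log2(protein-coding TPM + 1), by group and preparation batch; each point is a library and each line the group median. The isoforms lie lowest and the partners highest in the 3 tumors, and lungs of the 2 groups lie close together within a batch.

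Tumors were also set against tumor-bearing lungs (11 libraries with batch as a term, over 18297 genes). This comparison uses the same 3 tumors as the one against normal lung and is therefore not independent of it. Of the mitochondrial genes 8 of 13 rose and 0 fell (median log2 fold change 1.15), and of the nuclear genes 66 of 82 rose and 3 fell (median 1.35), with −0.10 as the median of all genes. Over all genes tested 22.6% rose and 23.7% fell. With the counts of the copies added, 12 of the 13 mitochondrial genes rose, and on log2(TPM + 1) and log2(TPM + 0.1) with limma 3 and 4 of the 13 did, at medians of 1.59 and 1.63. mt-Nd1 rose by a log2 of 1.64 (SE 0.318, edgeR adjusted p = 0.00128), from levels of 3005, 6173 and 3378 in tumors, against 577, 1141 and 931 in tumor-bearing lungs of batch 1 and 1840 in that of batch 2. Ndufa4 rose by 2.27 and Atp5h by 2.80. Cox4i2 fell by 4.42, Cox6b2 by 4.40 and Ndufa4l2 by 3.03. Tumor and lung of mice 6877, 6880 and 6881 came from the same animals. With the mouse as a block the counts were 8 mitochondrial genes up, 68 nuclear genes up and 3 nuclear genes down.

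In tumor-bearing against normal lung (4 mice each, batch as a term, 16727 genes), 0 of 95 members passed the adjusted threshold in edgeR, where 0.0359% of all genes did. The direction of the point estimates was mostly negative, in 10 of 13 mitochondrial and 64 of 82 nuclear genes, with median log2 fold changes of −0.50 and −0.21, against 0.01 over all genes. At an unadjusted p below 0.05, 7 mitochondrial and 23 nuclear genes were lower, a level that 7.87% of all genes reached. Uqcrc1, a core subunit of complex III, was the one member higher at that level (6.13% of all genes). DESeq2 on the same counts called 3 mitochondrial genes (mt-Nd4, mt-Cytb, mt-Nd4l) and 4 nuclear genes (Ndufa4, Ndufa10, Cox7a2, Atp5j2) lower at an adjusted p below 0.05, and voom of limma called 0.

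The mitochondrial genes had the larger differences between the lung groups. mt-Nd4, whose part of complex I pumps protons, had 395, 704 and 556 in tumor-bearing lungs of batch 1, against 954 and 1357 in normal lungs of that batch. In batch 2 it had 1614 in the tumor-bearing lung, against 1811, 1912, 1905 and 1900 in normal lungs. Tumor-bearing lungs were the lower in both batches (log2 fold change −0.92, SE 0.24, edgeR adjusted p = 0.194). The division with the chromosome 1 copy differed between these groups: in batch 1 the copy was given 45.6%, 36.2% and 48.8% in tumor-bearing lungs, against 0% in both normal lungs. Gene and copy together were 725, 1104 and 1085 in those tumor-bearing lungs, against 954 and 1357 in the normal lungs, which overlap, and the log2 fold change with the copies added was −0.60 (edgeR adjusted p = 0.236). mt-Cytb had 510, 1045 and 803 in tumor-bearing lungs of batch 1, against 1210 and 1848 in normal lungs, and 2079 in the tumor-bearing lung of batch 2, against 2395, 2346, 2571 and 2479 in normal lungs. Its log2 fold change was −0.84 (SE 0.26, edgeR adjusted p = 0.230), with −1.16 in batch 1 alone and −0.33 in batch 2 alone. The median over the 13 genes was −0.62 in batch 1 alone and −0.32 in batch 2 alone.

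On the CPM scale, tumor-bearing and normal lungs of batch 1 did not overlap, with tumor-bearing lungs lower, for 8 of 13 mitochondrial and 34 of 82 nuclear genes, against 19.6% of all genes. They did not overlap in the other direction for 0 and 7, against 17.6%. In batch 2 the single tumor-bearing lung lay below all 4 normal lungs for 10 of 13 mitochondrial and 37 of 82 nuclear genes, against 23.9% of all genes, and above them for 0 and 2, against 24.2%. The scale changed these counts. On protein-coding TPM, a count added after the data were seen, the groups of batch 1 did not overlap for 4 mitochondrial and 27 nuclear genes with tumor-bearing lungs lower (9.73% of protein-coding genes) and for 0 and 21 with tumor-bearing lungs higher (29.3%). In batch 2 the tumor-bearing lung was below the normal lungs for 10 and 25 (16.6%) and above them for 1 and 10 (31.9%). mt-Co3 and mt-Nd3, 2 of the 3 mitochondrial genes with a positive estimate, turned negative (−0.55 and −0.20) when the copies were added, which left mt-Nd6 at 0.06.

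Among nuclear genes, Ndufa4 had 178, 208 and 190 in tumor-bearing lungs of batch 1, against 227 and 253 in normal lungs, and 335 in the tumor-bearing lung of batch 2, against 482, 450, 449 and 501. It was lower in both batches (log2 fold change −0.55, SE 0.12, edgeR adjusted p = 0.175). Atp5j2, a small membrane subunit of the ATP synthase, had 122, 105 and 119 in tumor-bearing lungs of batch 1, against 172 and 189 in normal lungs, and 247 in that of batch 2, against 244, 300, 272 and 279. The order did not hold for every library of batch 2 (log2 fold change −0.65, SE 0.15, edgeR adjusted p = 0.184). Uqcrc1 went the other way, with 170, 199 and 174 in tumor-bearing lungs of batch 1, against 134 and 131 in normal lungs, and 105 in that of batch 2, against 71.6, 79.5, 83.4 and 86.0 (log2 fold change 0.25, SE 0.11, edgeR adjusted p = 0.356). The isoforms Cox4i2 (−0.28), Ndufa4l2 (−0.20) and Cox6b2 (−0.59) did not pass in the lungs.

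The largest estimate, −1.51 for the complex IV subunit Cox7b (SE 0.43, edgeR adjusted p = 0.215), came from batch 1. Cox7b had 65.6, 163 and 148 in tumor-bearing lungs of batch 1, against 570 and 601 in normal lungs. In batch 2 it had 1419 in the tumor-bearing lung, against 1156, 1382, 1083 and 1529, within the range of the normal lungs. Atp5k, subunit e of the ATP synthase, had 67.7, 71.9 and 59.0 in tumor-bearing lungs of batch 1, against 185 and 123 in normal lungs, and 439 in that of batch 2, against 492, 458, 471 and 478. The same genes differed between libraries of a mouse: Atp5k was higher in batch 2 by a log2 of 1.41 in mouse 6886 and 1.93 in mouse 6888, and Cox7b by 1.02 and 0.85. They also set the tumor of mouse 6880 apart, where Cox7b was at 593 beside 2535 and 3760 in the other tumors, and Atp5k at 289 beside 1057 and 1093.

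Length went with these differences. In a split at the median effective length of the nuclear members, made after the values were seen, the 42 shorter members had a median log2 difference of −0.26 between tumor-bearing and normal lungs of batch 1, and the 41 longer ones 0.04. Other protein-coding genes had 0.01 at or below the same length, and those above it, which were not matched in length to the longer members (median relative length 0.40 in those members and 1.05 in the other genes), had 0.17. Between batch 2 and batch 1 libraries of one mouse, the shorter members differed by medians of 0.55 and 0.57, and the longer by 0.18 and 0.23. Between tumors and normal lungs of batch 2 the medians of the shorter and the longer members were close, at 0.68 and 0.63, against 0.17 in other protein-coding genes at or below the length limit. The part of fragment length or RNA quality in these values was not tested.

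The heart and muscle isoforms of complex IV followed neither group. Cox7a1 had 2.6, 1.7 and 9.9 in tumors, 37.6, 6.9 and 2.1 in tumor-bearing lungs of batch 1, 14 in that of batch 2, 8.4 and 8.1 in normal lungs of batch 1, and 103, 16.5, 6.7 and 18.8 in normal lungs of batch 2. The library of mouse 6879 among tumor-bearing lungs and the batch 2 library of mouse 6886 among normal lungs stood highest. The same libraries stood highest for Cox8b (69.1 and 76.1, with all others at 8.4 to 28.1) and for Cox6a2 (17.4 and 20.5, with all others at 0 to 6.7). The summed level of 12 heart muscle genes was 1653 and 1192 in these libraries and 34.7 to 94.1 in the other 11. The batch 1 library of the same normal mouse 6886 was not among the high ones, at 8.4 for Cox7a1 and 14.1 for Cox8b. In tumors against normal lung the 3 genes did not pass the test in edgeR (Cox7a1, log2 fold change −2.59, adjusted p = 0.0568, and −1.17 without the normal lung of mouse 6886).

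**Figure D5:**
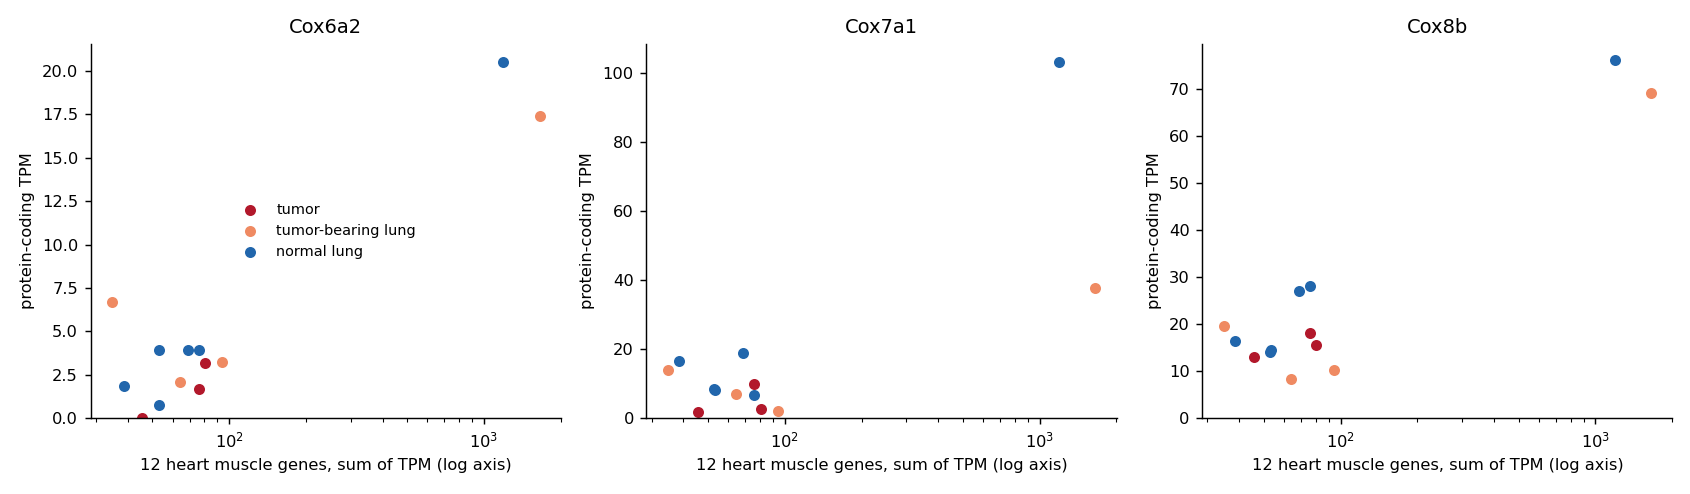
Levels of the heart and muscle isoforms Cox6a2, Cox7a1 and Cox8b (protein-coding TPM) against the summed level of 12 heart muscle genes (log axis), 1 point per library, coloured by group. A tumor-bearing lung and a normal lung, at 1653 and 1192 on the horizontal axis, hold the highest levels of all 3 isoforms.

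Genes that build and serve the chain were higher in tumors as well. Against normal lung, 70 of 78 mitochondrial ribosome genes rose and 0 fell (median log2 fold change 1.28), led by Mrps7 at 3.53 (SE 0.19) and Mrpl12 at 2.90 (SE 0.16). Of 44 assembly factors 24 rose and 0 fell (median 0.88), with Uqcc2, an assembly factor of complex III, at 2.04. Of 25 genes for copying, transcribing and handling mitochondrial DNA and RNA, 16 rose and 1 fell (median 0.88), among them Ssbp1, the mitochondrial single-strand binding protein, at 1.40. Of 19 genes of the tricarboxylic acid cycle 13 rose and 1 fell (median 0.77), with Idh3a, a subunit of isocitrate dehydrogenase, at 1.72. Of 15 electron carriers and related genes 9 rose and 2 fell, with Cyc1, the cytochrome c1 subunit of complex III that the name rule leaves out, at 1.67. Of 12 regulators 6 rose and 2 fell, with Myc at 2.79 and Epas1 at −5.83. Over all genes tested 29.4% rose and 27.4% fell. Between tumor-bearing and normal lungs no gene of these lists passed the adjusted threshold in edgeR (0.0359% of all genes). At an unadjusted p below 0.05, where 7.87% of all genes were lower and 6.13% higher, 10 of 77 mitochondrial ribosome genes were lower and 0 higher. At that level 2 assembly factors were lower and 2 higher, 4 genes of DNA and RNA handling were lower and 3 higher, 1 regulator was lower and 2 higher, 1 gene of the tricarboxylic acid cycle was lower and 0 higher, and 0 carriers were either.

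Promoter sequence was available in RefSeq (GRCm38.p6) for 66 nuclear members, from 250 bases before to 50 bases after the start. The full palindromic site of nuclear respiratory factor 1, shown in capitals in the windows below, was found in 5 of the 66 (7.58%), against 1.07% of 27025 genes. Its part GCGCATG, which every full site contains, was found in 19.7% of the members on either strand, against 4.41% of genes. The ETS motif CCGGAAG, bound by GABP, was found in 24.2%, against 9.93%, and the hypoxia response core ACGTG in 24.2%, against 21.8%. The windows below show the full site, in capitals, in the 4 members where it lies before the start; the fifth member with a site is Uqcrc1. The 27025 genes were taken with no limit on gene type or level, so they are not matched to the members. A match is a description of the letters and not a measured binding site.
Atp5g2, chr15:102671060-102671109, reverse strand: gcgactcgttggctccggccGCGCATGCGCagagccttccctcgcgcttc
Atp5k, chr5:108434420-108434469, reverse strand: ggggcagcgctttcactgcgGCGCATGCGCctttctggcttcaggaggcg
Cox6a1, chr5:115349091-115349140, reverse strand: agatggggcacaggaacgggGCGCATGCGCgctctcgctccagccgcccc
Ndufa11, chr17:56717682-56717731, forward strand: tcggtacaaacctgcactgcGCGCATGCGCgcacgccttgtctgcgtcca

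In tumors against normal lung these 4 genes rose, by a log2 of 1.49 for Atp5g2, 1.19 for Atp5k, 0.97 for Cox6a1 and 1.45 for Ndufa11, beside a median of 1.06 over the nuclear members. The level of Atp5g2 is uncertain, as stated above. Uqcrc1, the fifth gene with a site, rose too. In mean level within batch 2 its log2 difference was 0.63, beside 1.20 for Atp5g2, 0.55 for Atp5k, 0.61 for Cox6a1 and 1.01 for Ndufa11. The promoters of Cox4i2 and Ndufa4l2 are not described here.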

How the data were processed

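Total RNA from about 20 mg of frozen tumor or lung was made into ribosomal RNA-depleted libraries from 100 ng and sequenced as single reads of 75 bp, per the labels' protocols. The submitters' processing notes name Salmon (no version), DESeq2 1.18.1 and mm10. The authors deposited estimated counts and TPM per gene, the estimated counts having been made with Salmon per the submitters' processing notes. Within a gene, the deposited counts divided by TPM differed among libraries by a library factor alone (largest deviation 1.15e-14 on the log2 scale over 15364 genes). Counts were rounded for fitting. Of 46679 IDs, 46269 were named from GENCODE M21 (GRCm38, the assembly of mm10) and 410 kept their ID; 0 columns belonged to no sample. Levels per library are deposited TPM rescaled over protein-coding genes.

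edgeR 4.0.16 (TMM, filterByExpr, quasi-likelihood; R 4.3.3) was the main test, with a Benjamini-Hochberg threshold of 0.05 over all genes tested. Tumors and normal lungs were compared within batch 2 (7 libraries), lungs in 8 libraries with batch as a term, using the batch 1 library of the repeated mice, and tumors and tumor-bearing lungs in 11 libraries with batch as a term. Lung and tumor samples are separate mice within a group. Alternatives were DESeq2 1.42.0, limma 3.58.1 (voom, and log2 TPM with a pseudocount of 1 or 0.1), other scaling, filters and libraries. The fits were checked on simulated counts. Members and lists were chosen with earlier results of these data known. Genes named singly are the mitochondrial genes, isoform pairs, the 2 smallest p per complex and the 3 largest changes each way. Other genes named here (Ndufv2, Ndufs1, Ndufs7, Atp5b, Atp5s, Cox7b, Uqcrc1, Cox7b2, Ndufa11) were chosen after their values were seen.

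Tumor and lung of 3 mice come from the same animals and so are paired; the residuals of each pair correlated at 0.178, 0.0359 and −0.129 over 18796 genes. Shares of 31-base words were computed from GENCODE transcripts. Where a count is low, the precision is that of counting and of 3 or 4 mice per group.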

Additional observations from a re-analysis of the deposited data

Results flagged for a closer look

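Of 92 sets of 4 libraries examined for a library far from its group, 6 had a gap to the nearest other library past the critical share of the range (Dixon's 95% value), where chance gives about 1 in 20. In 4 of them the library was the tumor-bearing lung of mouse 6877, the only one of its group prepared in batch 2: Atp5g3 at 176 protein-coding TPM beside 134 to 138 in the others, Uqcr11 at 362 beside 178 to 199, Atp5k at 439 beside 59.0 to 71.9, and the nuclear share at 1.93% beside 1.34 to 1.43%. Normal lungs also differed by batch: Atp5k was 458 to 492 in batch 2, against 123 to 185 in batch 1, Uqcr11 363 to 421, against 258 to 295, and the nuclear share 1.98 to 2.15%, against 1.49 to 1.55%. mt-Co3 was 94.2 in the tumor-bearing lung of mouse 6879, beside 583 to 839 in the others of its group; with its chromosome 1 copy added the library stayed the lowest of the group at 902. mt-Nd4 was 1810 in the batch 2 normal lung of mouse 6886, beside 1900 to 1912 in the others.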

How the results depend on the processing

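No result changed direction past a threshold. For lungs, genes past the threshold numbered 6, and 275 with no filter, 426 with DESeq2, 90 and 65 with log2 TPM (pseudocounts 1 and 0.1), 1 without batch, 1 with the batch 2 library of repeated mice, 39 in batch 1 and 0 in batch 2 alone, and 0 to 221 as single libraries were left out, highest without the tumor-bearing lung of mouse 6877. Mitochondrial genes lower numbered 2 with no filter and 3 with DESeq2 (0 to 1 leaving out libraries), and nuclear genes lower 1 and 4 (0 to 3). The mitochondrial median became −1.20 and −1.23 on log2 TPM and −0.96 with repeats summed (−0.72 to −0.36 leaving out libraries); the nuclear median −0.70 and −0.91 on log2 TPM, −0.33 without batch and −0.42 with repeats summed (−0.28 to −0.16). On log2 TPM the median of all genes itself moved to −0.23 and −0.54. For tumors against normal lung, mitochondrial genes higher numbered 3 and 4 on log2 TPM, 4 in 11 libraries with a batch term and 3 without mice 6886 and 6888 (7 to 12 leaving out single libraries); their median was 0.55 and 0.55 on log2 TPM, 0.82 in 11 libraries and 0.91 with the copies added (0.59 to 0.84). The nuclear median was 0.77 on log2 TPM + 1 (0.82 to 1.22), nuclear genes higher 57 to 69 and lower 3 to 4, genes past the threshold 9095 to 10299. For tumors against tumor-bearing lung, log2 TPM + 1 called 5322 genes (4142 higher, 1180 lower) and log2 TPM + 0.1 4154 higher and 1987 lower; mitochondrial genes higher were 3 and 4 (7 to 9 leaving out libraries), their median 1.59 and 1.63, and 1.85 without batch (1.08 to 1.57). The nuclear median was 1.76 on log2 TPM + 0.1 and 1.66 without batch (1.13 to 1.42), nuclear genes higher 59 to 67 and lower 3, genes past the threshold 6444 to 8375. Mouse as a replicate block (paired fit) gave 8607 genes, medians of 1.13 and 1.35, and changed no count of members by over 1.5 times. Causes were not tested. Depth limits Cox6b2 and Cox7b2, which rest on few counts.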
